A study of Mus musculus with 12 samples.

Results

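The comparison described here was deletion of Cdk7 against its control in brown fat of mice that had spent 6 h in the cold, and its members were the 6 libraries labelled as cold, of 12 libraries in the series. Interscapular brown adipose tissue was taken at zeitgeber time 9 from chow-fed, 12-week-old C57BL/6 mice on a 12 h light and 12 h dark cycle, and total RNA was sequenced. The control group, called WT below, held littermates labelled as wild type, and the deletion group, called KO below, held mice labelled Cdk7 bKO, which the series title describes as a knockout specific to brown adipose tissue. Both groups were exposed to cold for 6 h with food available. Each group had 3 libraries, and each library was a pool of RNA from 2 mice of one genotype, 250 ng from each, so that 6 mice stood behind each group. The labels give neither the Cre driver, the deleted exons, the sex of the mice nor the cold temperature. A further 3 WT and 3 KO libraries came from mice kept at room temperature and were used only to set the effect in the cold beside the effect without it.

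CDK7 is a kinase that works with cyclin H and MAT1 as the CDK-activating kinase. As part of the general transcription factor TFIIH it phosphorylates the tail of RNA polymerase II at the start of transcription, and as a free complex it activates the kinases of the cell cycle. Brown fat burns fatty acids and glucose to make heat: cold raises sympathetic noradrenaline, beta-adrenergic receptors raise cAMP, lipolysis releases fatty acids, and UCP1 in the inner mitochondrial membrane lets protons return without making ATP. The tissue also holds endothelium, fibroblasts, macrophages, nerve and other cells, and in a sample of whole tissue fewer cells of a type and less RNA per cell cannot be told apart.

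The 6 cold libraries held 27609717 to 33633044 counts assigned to genes. The groups stood apart along the first principal component of the 500 most variable genes, which carried 78.4% of their variance. Libraries of one group correlated at 0.988 to 0.992 (Pearson's r across genes of log2 CPM, counts scaled to a common library size) and libraries of different groups at 0.957 to 0.965. Mitochondrially encoded genes took 34.6%, 40.6% and 38.8% of the counts in the WT pools and 31.1%, 31.5% and 36.0% in the KO pools, and these ranges overlapped. Levels are given as CPM rescaled by the trimmed mean of M-values (TMM). The TMM factors were 0.908, 0.837 and 0.866 in the WT pools and 1.20, 1.16 and 1.09 in the KO pools. Genes were tested with edgeR's quasi-likelihood test over all 14391 genes that passed its expression filter, with Benjamini-Hochberg adjusted p-values and a threshold of 0.05, and a gene is called higher or lower in KO only where it passed. Values after ± are standard errors of log2 fold changes (KO minus WT), worked back from the F statistic of the test. The p-values weigh a difference against the spread between the 3 pools of a group, taken over all groups in the fit and moderated across genes.

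Cdk7 itself was 17.2, 15.3 and 15.2 CPM in the WT pools and 5.27, 4.79 and 5.33 CPM in the KO pools. Every KO pool lay below every WT pool, and the gene was 3.10-fold lower in KO (log2 fold change -1.63 ± 0.11, adjusted p = 2.6e-08). The counts run over all exons, so they do not show which part of the transcript was left. At room temperature the corresponding log2 fold change was -1.64 ± 0.12, and the difference between the 2 effects was -0.03 (adjusted p = 0.93). Ucp1, the defining marker of brown adipocytes, was present in all 6 libraries at 16810.0, 15202 and 14305 CPM in the WT pools and 3646, 4224 and 4155 CPM in the KO pools.

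KO and WT brown fat differed at most genes tested. Of the 14391 genes, 4251 (29.5%) were higher and 4102 (28.5%) lower in KO, and 8353 (58.0%) passed in either direction. Among them 1607 (11.2%) were more than 2-fold higher and 569 (3.95%) more than 2-fold lower. The pools of the groups did not overlap for 63.9% of genes, with the KO pools above for 32.5% and below for 31.4%. The balance of directions turned on the scaling. With TMM the median gene had a log2 fold change of 0.03 and 50.9% of calls were higher. With the median-ratio size factors of DESeq2 the median was 0.01, with 4143 higher and 4236 lower. Upper-quartile factors moved the median to 0.14, with 5243 higher and 3014 lower, so that 63.5% of calls were higher. With library totals alone it moved to 0.43, with 8129 genes (56.5%) higher and 1232 (8.56%) lower, so that 86.8% of calls were higher. In that scaling 65.0% of genes passed, 22.7% as more than 2-fold higher and 1.56% as more than 2-fold lower. Of the genes called lower with TMM, 24 were called higher with library totals alone, and no gene went the other way. Changes below are therefore relative to the median gene, and a fall smaller than the shift between the medians of 0.03 and 0.43 has the opposite sign in counts per library total.

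**Figure D1:**
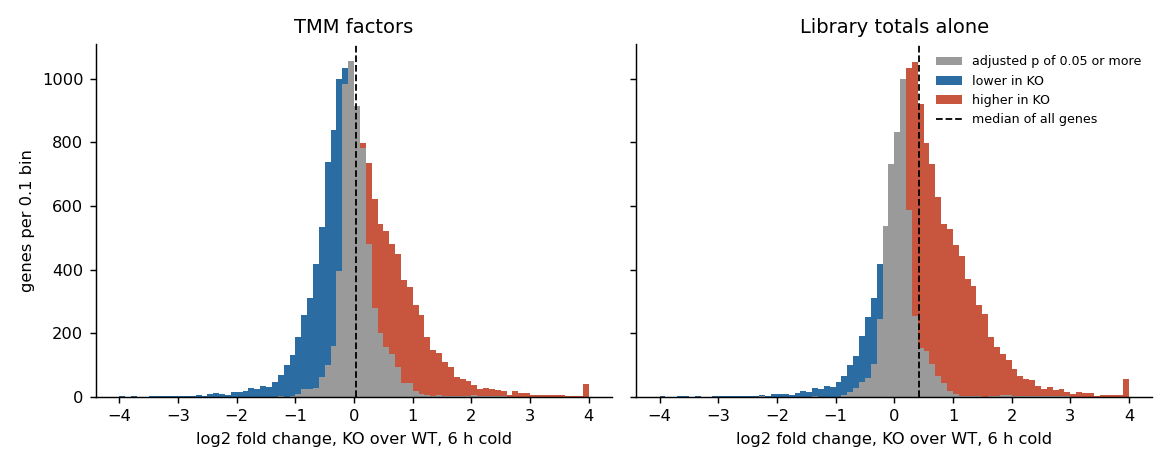
Histograms of the log2 fold change of each of the 14391 tested genes (KO over WT after 6 h cold, bins of 0.1, values beyond 4 collected in the outermost bins) with TMM factors on the left and library totals alone on the right. The shape is the same on both sides, and the median gene moves from 0.03 to 0.43, which takes the split of calls from 4251 higher and 4102 lower to 8129 higher and 1232 lower.

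The calls also differed by expression level. Among 12738 protein-coding genes outside the mitochondrial genome, split into 4 bins of equal size by mean CPM, the lowest bin had 48.4% higher and 7.79% lower in KO, with a median log2 fold change of 0.67. The highest bin had 13.8% higher and 53.7% lower, with a median of -0.23, which was 0.17 with library totals alone. Gene span made little difference: the bin of the shortest genes had 27.8% higher and 28.8% lower, and the longest 33.3% and 28.7%. Long non-coding RNA genes were called higher in 374 and lower in 196 of 1188, and pseudogenes in 48 and 82 of 411. Filtering keeps a gene that is detected in one group alone, so a low gene that passed through its KO level is counted here as higher. Counts for the gene lists below were not matched for expression level.

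**Figure D2:**
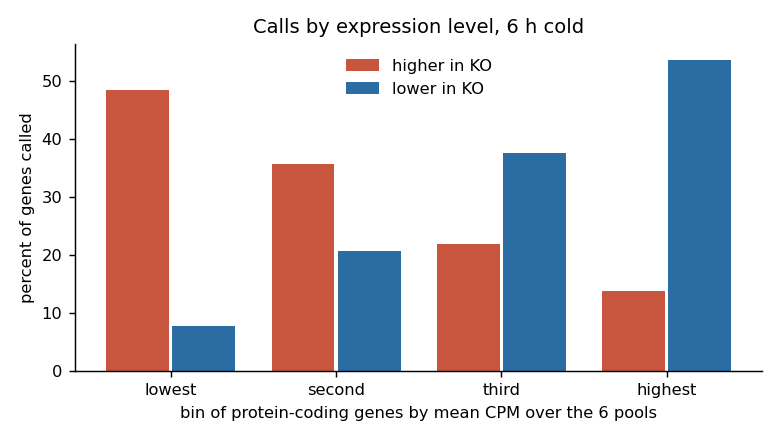
Percent of protein-coding genes called higher or lower in KO after 6 h cold, by bin of mean CPM over the 6 pools (4 bins of equal size). The higher calls drop from 48.4% in the lowest bin to 13.8% in the highest, and the lower calls rise from 7.79% to 53.7%.

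Among the largest falls, Lgr6, a receptor for R-spondins, was 228, 249 and 185 CPM in the WT pools and 9.56, 8.26 and 14.4 CPM in the KO pools. It was 20.6-fold lower in KO (-4.37 ± 0.24, adjusted p = 2.4e-05), and the groups were far apart. Fabp3, which carries fatty acids in the cytosol of oxidative cells, was 482, 731 and 544 CPM in the WT pools and 36.5, 28.8 and 64.8 CPM in the KO pools, or 13.5-fold lower (-3.76 ± 0.42, adjusted p = 0.0019). Fabp3 lies opposite Zcchc17, and its pseudogene Fabp3-ps1, which can share its reads, was also 9.30-fold lower (-3.22 ± 0.29). Gmpr, which turns GMP into IMP, was 2656, 2366 and 1759 CPM in the WT pools and 405, 301 and 406 CPM in the KO pools, or 6.10-fold lower (-2.61 ± 0.18, adjusted p = 8.3e-06). St3gal5, the synthase of ganglioside GM3, was 156, 175 and 147 CPM against 17.5, 13.1 and 20.3 CPM (-3.24 ± 0.15). Slc25a34, a mitochondrial carrier, was 42.0, 55.1 and 49.6 CPM against 6.44, 5.22 and 6.18 CPM (-3.04 ± 0.12). Further falls of this size were those of Lrrc52, a subunit of potassium channels (-3.34 ± 0.10), Tectb (-2.89 ± 0.18), Mmd2 (-3.04 ± 0.23), Gldn (-2.65 ± 0.16), Arhgef19, an exchange factor for small GTPases (-2.55 ± 0.25), Cend1 (-2.47 ± 0.14) and E2f2, a transcription factor of the cell cycle (-2.84 ± 0.13). Ffar4, the receptor for long-chain fatty acids, was 5.82-fold lower (-2.54 ± 0.37, adjusted p = 0.0046), a call lost under 1 of the 17 alternatives. Cyp2b10, a cytochrome P450, was 3.70, 9.44 and 3.17 CPM against 1.63, 0.401 and 0.426 CPM, and its call (adjusted p = 0.042) was lost under 7 of the 17 alternatives (adjusted p = 0.072 without WT pool 1, 0.059 without WT pool 3, 0.13 without KO pool 2 and 0.13 without KO pool 3).

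Most of the largest rises started from WT levels near or under 1 CPM. Car6, a secreted carbonic anhydrase, was 0.108, 0.216 and 0.252 CPM in the WT pools and 11.3, 16.7 and 18.3 CPM in the KO pools, a log2 fold change of 6.31 ± 0.29 (adjusted p = 7e-09). Cfap53, a protein of cilia, was 0.251, 0.433 and 0.540 CPM against 10.2, 11.8 and 8.68 CPM (4.64 ± 0.22). Slc16a12, a creatine transporter, was 0.467, 0.346 and 0.540 CPM against 8.05, 5.64 and 7.89 CPM (3.97 ± 0.23), and Otof, which acts in vesicle fusion, was 0.359, 0.433 and 0.432 CPM against 4.88, 4.68 and 5.15 CPM (3.58 ± 0.21). Trim72, a membrane repair protein (3.32 ± 0.24), Zdbf2, an imprinted gene (2.84 ± 0.22), and the pseudogene Pdxk-ps (4.09 ± 0.37) also rose. Several of the others are known from myeloid cells: Clec4d (4.43 ± 0.32), Itgax, which encodes CD11c (2.96 ± 0.44), and Ms4a7 (2.92 ± 0.24). Mmp12, the macrophage elastase, was 0.539, 0.0433 and 0.144 CPM against 4.09, 3.18 and 21.9 CPM, with the third KO pool far above the others, and its call (adjusted p = 0.041) was lost under 8 of 17 alternatives (adjusted p = 0.1 without WT pool 1, 0.13 without WT pool 2, 0.13 without WT pool 3 and 0.057 without KO pool 1). Gpnmb (8.99, 6.07 and 28.3 CPM in the KO pools, adjusted p = 0.038) was likewise lost under 7 of 17 (adjusted p = 0.13 without WT pool 1, 0.11 without WT pool 2, 0.11 without WT pool 3 and 0.062 without KO pool 1). Gsta3, a glutathione transferase (3.01 ± 0.61, adjusted p = 0.014), and Cyp2f2 (2.83 ± 0.69, adjusted p = 0.016) lost theirs under 2 and 3 of 17. For Gsta3 the value was adjusted p = 0.06 without WT pool 1, and for Cyp2f2 adjusted p = 0.086 without WT pool 1 and 0.07 without WT pool 2.

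**Figure D3:**
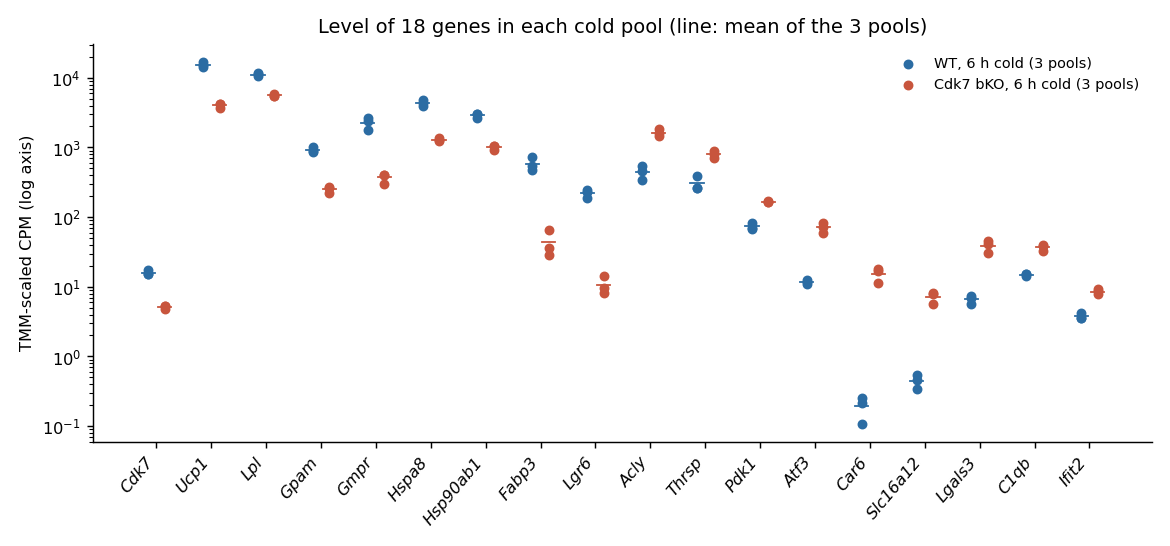
TMM-scaled CPM on a log axis of 18 genes in each of the 3 WT (blue) and 3 KO (red) pools after 6 h cold, with a line at the mean of each group. The groups do not overlap for any of the 18, which was a condition for naming the largest rises and falls among them, from Cdk7 and Ucp1 on the left, which are lower in KO, to Car6 and Slc16a12, which sit under 1 CPM in every WT pool.

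The thermogenic programme was lower in KO. None of its 24 genes was higher and 20 were lower, with a median log2 fold change of -1.05 against 0.03 over all genes, and with library totals alone 3 were higher and 15 lower with a median of -0.65. Ucp1 was 3.85-fold lower (-1.95 ± 0.10, adjusted p = 2e-09), and its share of all counts fell from 1.53%, 1.27% and 1.24% to 0.438%, 0.491% and 0.451%. Adrb3, the main beta-adrenergic receptor of adipocytes, was 172, 150.5 and 132 CPM in the WT pools and 24.4, 25.4 and 42.1 CPM in the KO pools (-2.31 ± 0.26, adjusted p = 0.0011). Its groups lay far apart. Among transcription factors of oxidative metabolism, Esrrb was 8.01, 10.6 and 9.33 CPM against 2.33, 1.28 and 1.52 CPM (-2.43 ± 0.20), Esrra 212, 216 and 219 CPM against 94.2, 109 and 107 CPM (-1.06 ± 0.08), and Esrrg 28.3, 27.9 and 28.0 CPM against 12.7, 11.6 and 10.99 CPM (-1.25 ± 0.09). Ppara, the receptor that senses fatty acids, was also lower (-1.29 ± 0.10). The coactivator Ppargc1b was 152, 160.1 and 149.6 CPM against 61.5, 61.3 and 73.8 CPM (-1.23 ± 0.08, adjusted p = 2.7e-08). Ppargc1a, the cold-induced coactivator PGC-1alpha, was 1249.9, 1233 and 683 CPM in the WT pools and 413, 473 and 575 CPM in the KO pools. The third WT pool lay much nearer to the KO pools than the other two, and the call (-1.12 ± 0.29, adjusted p = 0.025) was lost under 8 of 17 alternatives (adjusted p = 0.07 without WT pool 1, 0.064 without WT pool 2, 0.096 without KO pool 1, 0.088 without KO pool 2 and 0.057 without KO pool 3). Dio2, which makes active thyroid hormone, was 3491, 3068 and 3362 CPM in the WT pools and 1632, 1822 and 1555 CPM in the KO pools and 1.98-fold lower (-0.99 ± 0.09, adjusted p = 4.5e-07). In the fit to all 12 libraries, where the spread is shared with the more variable room temperature pools, its adjusted p was 0.052. Fgf21, a secreted hormone (-1.30 ± 0.34), and Kcnk3, a potassium channel (-1.17 ± 0.10), were lower too. The other 4 members did not pass: Prdm16 (-0.10 ± 0.08), Irf4 (0.03 ± 0.19), Elovl3 (-0.20 ± 0.29) and Cox8b (0.05 ± 0.08).

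Most genes that release and store fat were lower as well. Of 19 lipolysis and lipid droplet genes, 18 passed the filter, 2 were higher and 12 lower, with a median of -0.46 (6 higher and 7 lower with library totals alone, median -0.06). Plin5, which links droplets to mitochondria, was 194, 192 and 211 CPM against 85.7, 87.9 and 79.0 CPM (-1.24 ± 0.08), and Plin1, the droplet coat that gates lipolysis, was 989, 1079.7 and 1152 CPM against 479, 531 and 564 CPM (-1.03 ± 0.09). The beta-1 adrenergic receptor Adrb1 was 31.2, 33.5 and 41.7 CPM against 10.7, 10.6 and 13.4 CPM (-1.62 ± 0.12). Pnpla3, a lipase gene that responds to feeding, went the other way, at 85.2, 85.7 and 106 CPM against 259, 289 and 299.6 CPM (1.62 ± 0.10), and so did Hilpda, an inhibitor of lipolysis (1.05 ± 0.22). In the steps that esterify fatty acids to triglyceride, 1 of 12 tested genes was higher and 9 were lower, with a median of -0.91, or -0.51 with library totals alone. Gpam, the first acyltransferase, was 852, 1029.6 and 886 CPM in the WT pools and 222, 272 and 259 CPM in the KO pools, or 3.68-fold lower (-1.88 ± 0.10, adjusted p = 2e-09). Gk and Gpd1, which supply glycerol 3-phosphate, were 2.74-fold lower (-1.46 ± 0.08) and 2.25-fold lower (-1.17 ± 0.09), and Agpat2 was 2.07-fold lower (-1.05 ± 0.08). Mogat1, an acyltransferase for monoacylglycerol, was the gene that rose (1.08 ± 0.16), from 3.34, 2.47 and 3.64 CPM to 6.51, 6.31 and 7.34 CPM.

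Among 31 genes that take up and oxidise fatty acids 29 were tested, 6 were higher and 16 lower, with a median of -0.29. The median turned to 0.11 with library totals alone (13 higher, 7 lower). With TMM, 53.7% of all protein-coding genes in the highest bin of expression were lower (median -0.23). Lpl, the lipase that takes fatty acids from blood lipoproteins, was 11551, 11203 and 10659 CPM in the WT pools and 5443, 5878 and 5480.2 CPM in the KO pools, or 1.99-fold lower (-0.99 ± 0.09, adjusted p = 3.7e-07). Ehhadh of the peroxisome (-1.36 ± 0.09), the acyl-CoA synthetase Slc27a2 (-1.03 ± 0.08) and the carnitine carrier Slc25a20 (-0.86 ± 0.08) were lower. Cpt1a (0.39 ± 0.10) and Cpt2 (0.45 ± 0.09), the carnitine palmitoyltransferases, were higher, as were the transporter Slc27a1 (0.72 ± 0.14) and Gpihbp1, which anchors LPL in capillaries (0.52 ± 0.09).

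Most genes of fatty acid synthesis were higher. Of 20 genes, 13 were higher and 2 lower, with a median of 0.52 (0.92 with library totals alone). Acly, which makes cytosolic acetyl-CoA from citrate, was 345, 462 and 533 CPM in the WT pools and 1467, 1829.6 and 1589 CPM in the KO pools, or 3.64-fold higher (1.87 ± 0.15, adjusted p = 7.5e-06). Acaca, the carboxylase that makes malonyl-CoA, was 855, 834 and 1086 CPM against 1356, 1575 and 1543 CPM (0.69 ± 0.10), and Scd2, a desaturase, was 33.3, 31.9 and 33.3 CPM against 104, 102 and 102 CPM (1.64 ± 0.07). Thrsp, which is expressed with lipogenic genes, was 260.3, 262 and 392 CPM against 896, 813 and 700.5 CPM (1.40 ± 0.18). The NADPH suppliers Me1 (1.47 ± 0.23) and Pgd (1.30 ± 0.16) and the desaturase Fads1 (0.84 ± 0.11) were higher as well. Fatty acid synthase itself, Fasn, did not pass (0.12 ± 0.12, adjusted p = 0.43). Scd1, another desaturase, was 45135, 35640.3 and 41504 CPM against 26535, 30764 and 29762 CPM (-0.49 ± 0.11), a call lost with library totals alone (-0.09). Of 23 cholesterol genes tested 9 were higher and 4 lower, with a median of 0.12 (12 higher and 3 lower with library totals alone). Pmvk (0.77 ± 0.09) and Lss (0.59 ± 0.10) were higher, whereas the regulator Srebf2 (-0.79 ± 0.09), Hmgcs1 (-0.93 ± 0.10) and Hsd17b7 (-1.26 ± 0.18) were lower.

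Genes of glucose uptake and glycolysis were mostly lower, with 14 of 24 tested genes lower and 1 higher (median -0.27, turning to 0.13 with library totals alone, 7 higher and 8 lower). Of all protein-coding genes in the highest bin of expression, 53.7% were lower (median -0.23). Pfkfb3, which makes the activator of phosphofructokinase, was 1175, 1146 and 1139.7 CPM in the WT pools and 391, 470.3 and 390.2 CPM in the KO pools, or 2.76-fold lower (-1.47 ± 0.09). Pfkfb1 (-1.13 ± 0.09), hexokinase Hk2 (-0.84 ± 0.08) and Ldhb (-0.82 ± 0.08) were lower. The insulin-responsive glucose transporter Slc2a4 was 432, 415 and 426 CPM against 249, 274 and 255 CPM (-0.71 ± 0.08). Pdk1, a kinase that shuts the pyruvate dehydrogenase complex, was the gene that rose, at 68.6, 70.8 and 83.1 CPM against 173, 164 and 165 CPM (1.17 ± 0.08). The subunit Pdhb of that complex (0.51 ± 0.09) and Pygl, glycogen phosphorylase of liver type (365, 412 and 491 CPM against 1027, 1023 and 968 CPM, 1.25 ± 0.10), were among the 10 largest gains in mean CPM. Among 15 insulin signalling genes 3 were higher and 6 lower (median -0.07, turning to 0.33 with library totals alone, 7 higher and 2 lower): the receptor Insr was 176, 175 and 176 CPM against 112, 107 and 102 CPM (-0.71 ± 0.07) while its substrate Irs1 rose (0.64 ± 0.12).

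In the tricarboxylic acid cycle 9 of 19 genes were lower and 1 higher (median -0.16, turning to 0.24 with library totals alone). This stands beside 53.7% lower (median -0.23) among protein-coding genes in the highest bin of expression. Ogdh, the E1 subunit of the 2-oxoglutarate dehydrogenase complex, was 2675, 2804 and 2589 CPM against 1297, 1375 and 1543 CPM (-0.94 ± 0.09), and Idh3g (-0.80 ± 0.10) and Cs (-0.63 ± 0.08) were lower, while Suclg2 was higher (0.50 ± 0.09). Branched-chain amino acid breakdown had 3 higher and 8 lower of 19 (median -0.05, turning to 0.35 with library totals alone). Pccb (-1.07 ± 0.09), Dbt (-0.82 ± 0.09) and Bckdhb (-0.75 ± 0.08) fell and Mccc2 rose (0.40 ± 0.08). In the creatine cycle 3 were higher and 3 lower of 7 tested. Ckb, the cytosolic kinase that cycles creatine, was 59.5, 63.7 and 44.5 CPM against 16.9, 14.5 and 13.4 CPM (-1.90 ± 0.14, adjusted p = 1.7e-06), and the phosphatase Alpl was lower (-0.82 ± 0.08). The creatine synthesis enzymes Gatm (1.28 ± 0.19) and Gamt (1.07 ± 0.20) were higher, from levels under 2 CPM in every WT pool.

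Many genes of the respiratory chain were lower by small amounts. In the highest bin of expression, 53.7% of all protein-coding genes were lower, with a median of -0.23. Falls of this size were thus not particular to the respiratory chain. Of 37 nuclear complex I genes 36 were tested, 21 were lower and 1 higher (median -0.25, turning to 0.15 with library totals alone, 10 higher and 2 lower), and of 41 genes of complexes II to V 40 were tested, 25 lower and 3 higher (median -0.24, turning to 0.15). Examples are Ndufb10 (-0.69 ± 0.08), Ndufb2 (-0.74 ± 0.12) and Atp5l (-0.81 ± 0.08) among the falls and Atp5g1 among the rises (1.27 ± 0.18). Cox4i1 and Ndufa13 are listed at 0 in all 6 libraries although cells need both, so a count of 0 in these files can come from how reads were assigned. Of the 13 protein genes of the mitochondrial genome 9 were tested, 7 were lower and none higher, with a median of -0.73 (-0.33 with library totals alone). Mt-Nd5 was 40514, 62470.1 and 61939 CPM against 21277, 23276 and 26007 CPM (mt-Nd5, -1.22 ± 0.16, adjusted p = 4.1e-05), without overlap, and mt-Nd2 (-0.74 ± 0.13) and mt-Nd4 (-0.73 ± 0.12) were lower. Mitochondrial ribosomal proteins were lower in 37 and higher in 6 of 72 tested (median -0.22, turning to 0.18 with library totals alone), with Mrps2 at 144, 145 and 152 CPM against 60.5, 69.6 and 73.6 CPM (-1.11 ± 0.08) and Mrpl10 at 74.0, 70.4 and 70.6 CPM against 105, 106 and 105 CPM (0.56 ± 0.07). Of 47 mitochondrial solute carriers 40 were tested, 10 were higher and 22 lower (median -0.29, turning to 0.12 with library totals alone). Slc25a42, which carries coenzyme A (-1.91 ± 0.10), Slc25a48 (-1.64 ± 0.12) and Slc25a35 (-1.50 ± 0.10) fell beside Slc25a34, and the dicarboxylate carrier Slc25a10 rose from 9.27, 6.88 and 8.58 CPM to 23.7, 24.98 and 28.0 CPM (1.63 ± 0.12). Cytosolic ribosomal proteins were the list whose calls turned most with the scaling: 1 higher and 25 lower of 75 tested with TMM (median -0.13), but 47 higher and 3 lower with library totals alone (median 0.26).

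With TMM, more chaperones of the heat shock family were lower than higher in the cold, and more were higher than lower at room temperature. These proteins fold others, and their genes are induced by the factor HSF1 through heat shock elements, inverted repeats of the letters GAA. Of 19 genes, 4 were higher and 11 lower in the cold (median -0.57). With library totals alone 7 were higher and 8 lower in the cold (median -0.17), whereas with TMM at room temperature 13 were higher and 2 lower (median 0.49), beside 19.3% higher and 21.0% lower over all genes there. For 14 of the 19 the effect of deletion was more negative in the cold, beside 12.9% of all genes, and for none was it more positive. Hspa8, the constitutive HSP70, was 4278, 4757 and 3975 CPM in the WT pools and 1229, 1374 and 1294 CPM in the KO pools. It was 3.34-fold lower (-1.74 ± 0.09, adjusted p = 2.4e-09) without overlap, against 0.42 ± 0.10 at room temperature, and the difference was -2.20 ± 0.14 (adjusted p = 2.1e-07). Hsp90ab1, the constitutive HSP90, was 3067, 3040.1 and 2609 CPM in the WT pools and 910.4, 1064 and 1061 CPM in the KO pools (-1.52 ± 0.10; difference -1.52, adjusted p = 5.6e-06). The stress-inducible HSP90 gene Hsp90aa1 was 947, 1000.4 and 657 CPM against 417, 440.1 and 389 CPM (-1.06 ± 0.14; 0.49 at room temperature). Stip1, which links HSP70 to HSP90, was lower (-0.96 ± 0.09; 0.47 at room temperature), and so was Hspa4l (-1.71 ± 0.13). Hspa1a, the stress-inducible HSP70, was instead higher in both settings (1.65 ± 0.36 in the cold, a call lost under 3 of 17 alternatives with adjusted p = 0.069 without WT pool 2 and 0.052 without KO pool 3, and 2.26 at room temperature). It shares reads with its near-identical copy Hspa1b, which did not pass (1.05 ± 0.36, adjusted p = 0.066).

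**Figure D4:**
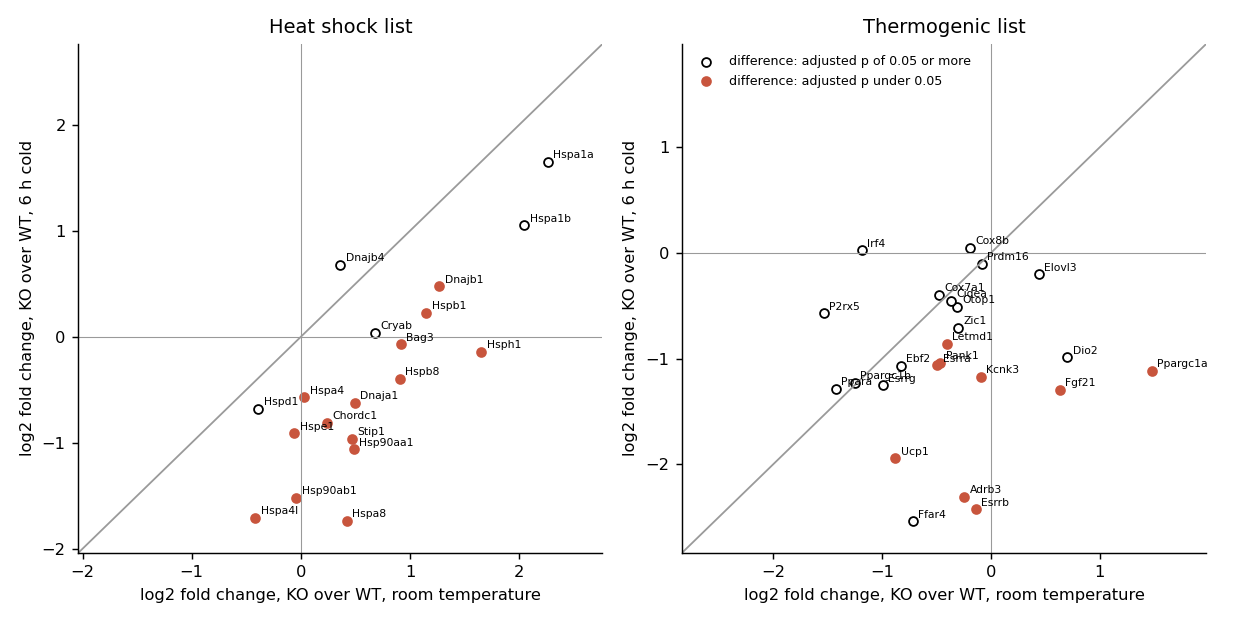
Log2 fold change of KO over WT at room temperature (x axis, fit to all 12 libraries) against that after 6 h cold (y axis, fit to the 6 cold libraries) for the tested members of the heat shock list and the thermogenic list, with a grey line where both are equal. Filled points had a difference between the 2 effects with an adjusted p under 0.05. Most heat shock genes lie below the line, with Hspa8 at 0.42 and -1.74, and Ppargc1a lies at 1.48 and -1.12.

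The 250 bases before the RefSeq starts of these genes (build GRCm38.p6) were searched for an element core, TTCNNGAA or GAANNTTC, each palindromic and thus the same on both strands. Of the 19 genes 15 had a promoter entry, and 8 of these held a core in any of their entries. For the shares over tested genes a single entry was searched for each gene, so the measures differ. Over tested genes with an entry the share was 10.2% of 10632 promoters, and it was 10.6% among genes higher in KO, 10.3% among genes lower in KO and 12.8% over all 32851 promoters in the table. The cores of 4 of the 8 genes are shown, chosen to cover genes that fell and a gene that rose. The choice holds every gene with a core that was lower in KO. Further genes with a core that were higher, or that did not pass, are left out. A match of letters is not a bound site. Hspd1 and Hspe1, the mitochondrial chaperonins, are transcribed away from each other and share a cluster of 3 overlapping cores at chr1:55088053-55088082. The cluster is printed once for each gene from its own strand. For Hspd1, Hspe1 and Dnaja1 the 250 bases searched overlap annotated exons, and only 30 bases are printed. The third sequence is the core of Dnaja1, an HSP40 cochaperone (chr4:40722333-40722362, plus strand), and the last is the whole 250 bases of Hspa1a (chr17:34972157-34972406, minus strand). Capitals mark the cores.
Hspd1: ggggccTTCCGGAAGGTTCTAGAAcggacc
Hspe1: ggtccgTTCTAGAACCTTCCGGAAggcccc
Dnaja1: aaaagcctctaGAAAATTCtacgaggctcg
Hspa1a: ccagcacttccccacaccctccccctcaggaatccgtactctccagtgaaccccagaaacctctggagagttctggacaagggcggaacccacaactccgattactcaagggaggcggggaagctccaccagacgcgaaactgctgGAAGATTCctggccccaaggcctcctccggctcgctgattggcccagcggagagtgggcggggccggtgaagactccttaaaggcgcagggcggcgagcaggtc

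Hspd1 and Hspe1, which share their element, were both lower in the cold: Hspe1 was 203, 221 and 167 CPM against 95.6, 107 and 113 CPM (-0.91 ± 0.10) and Hspd1 997, 1004 and 878 CPM against 642, 631 and 526 CPM (-0.68 ± 0.09). Dnaja1 was 182, 169 and 159 CPM against 132, 117 and 83.4 CPM (-0.62 ± 0.15), a call lost with library totals alone. Genes with a core stood among those lower (Hspe1), those higher (Hspa1a) and those that did not pass (Hspa1b). A further 10 letter patterns were searched on both strands. The TATA box TATAAA stood in 6.54% of tested promoters, in 12.4% of all in the table, in 7.45% and 5.96% of those higher and lower, and in 9.81% and 11.6% of those more than 2-fold higher and lower. The nuclear receptor letters AAGGTCA stood in 2.91% of tested promoters, 4.08% of all in the table, 2.58% and 3.84% of those higher and lower, and 3.30% and 5.40% of those more than 2-fold higher and lower (21 of 389 for the last). It stood in none of the 17 thermogenic promoters in the table. The letters ACCGGAAG, bound by ETS factors such as GABPA, stood in 3.27% of tested promoters, 1.72% of all in the table, 1.66% and 4.31% of those higher and lower, but 1.43% and 1.54% of those more than 2-fold higher and lower. The NRF1 letters GCGCATGCG stood in 2.94% of tested promoters, 1.45% of all in the table, 2.17% and 3.84% of those higher and lower, but 1.87% and 1.03% of those more than 2-fold higher and lower. The cAMP response element TGACGTCA stood in 2.66% of tested promoters, 1.55% of all in the table, 1.88% and 3.20% of those higher and lower, but 1.16% and 1.54% of those more than 2-fold higher and lower. The AP-1 letters TGACTCA stood in 3.04% of tested promoters, 4.46% of all in the table, 4.01% and 2.50% of those higher and lower, and 5.17% and 4.11% of those more than 2-fold higher and lower. The E-box CACGTG, the box CCAAT, the SREBP letters TCACNCCAC and the ERR site TCAAGGTCA, which contains AAGGTCA, stood in 8.27%, 35.9%, 0.978% and 0.245% of tested promoters.

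Other stress pathways held genes that rose and genes that fell. Of 24 integrated stress response genes 10 were higher and 9 lower (median 0.34), and with library totals alone 13 higher and 5 lower (median 0.74). Ppp1r15a, which restarts translation, was 29.0, 26.0 and 27.3 CPM against 62.6, 61.3 and 74.9 CPM (1.27 ± 0.09), and Ddit4 (1.06 ± 0.12) and Psat1 (1.15 ± 0.15) were higher. Atf5 was 245, 204 and 222 CPM against 93.4, 88.4 and 94.2 CPM (-1.28 ± 0.08), and Asns (-0.66 ± 0.07) and Ddit3, which encodes CHOP (-0.80 ± 0.14), were lower. Gdf15, a secreted stress hormone, was 0.575, 0.390 and 0.576 CPM against 3.91, 2.49 and 3.99 CPM (2.73 ± 0.26), less than its effect at room temperature (4.71; difference -2.02, adjusted p = 0.033). The unfolded protein response of the endoplasmic reticulum had 5 higher and 6 lower of 19 (median -0.02, turning to 0.38 with library totals alone, 12 higher and 1 lower), with Xbp1 higher (0.46 ± 0.09) and Manf lower (-0.63 ± 0.07; 0.77 at room temperature). Antioxidant genes had 4 higher and 7 lower of 20 (median -0.02, turning to 0.38 with library totals alone, 11 higher and 2 lower). Lysosome genes had 5 higher and 12 lower of 25 (median -0.17, turning to 0.23 with library totals alone, 13 higher and 2 lower), among them the cathepsin Ctsz at 549, 643 and 519.5 CPM against 216, 207 and 219.7 CPM (-1.41 ± 0.09) and the cholesterol transfer protein Npc2 at 224, 209.9 and 236 CPM against 364, 379.7 and 347 CPM (0.70 ± 0.08).

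Immediate-early and cAMP-responsive factors were mostly higher, 12 of 21 with 3 lower (median 0.43). Atf3 was 12.6, 11.8 and 11.03 CPM in the WT pools and 82.8, 58.6 and 71.6 CPM in the KO pools, or 6.02-fold higher (2.59 ± 0.12, adjusted p = 1e-08). Fos was 1.33, 1.13 and 1.37 CPM against 4.95, 3.05 and 5.24 CPM (1.78 ± 0.22) and Btg2, which restrains the cell cycle, was higher (0.93 ± 0.11). Dusp1, a phosphatase of MAP kinases, was 97.5, 104 and 113 CPM against 59.6, 67.3 and 77.1 CPM (-0.62 ± 0.09), with an adjusted p of 0.11 in the fit to all 12 libraries. Targets of p53 were higher in 16 and lower in 2 of 23 (median 0.74), with Trp53inp1 at 13.1, 12.3 and 16.0 CPM against 42.6, 33.5 and 32.3 CPM (1.39 ± 0.12) and the death receptor Fas at 9.70, 8.48 and 10.6 CPM against 20.9, 18.0 and 17.7 CPM (0.98 ± 0.11; -0.57 at room temperature). The p53 target Cdkn1a, the cell cycle inhibitor p21, did not pass in the cold (0.08 ± 0.08, adjusted p = 0.42). Cell cycle genes were higher in 25 and lower in none of 31 tested of 33 listed (median 1.20), beside 48.4% higher over all protein-coding genes in the lowest bin of expression. Mki67, the proliferation marker, was 1.76, 1.73 and 1.41 CPM against 5.20, 4.01 and 4.78 CPM (1.52 ± 0.18), Top2a 0.718, 0.346 and 0.504 CPM against 2.75, 2.27 and 2.65 CPM (2.26 ± 0.26) and Pcna, the replication clamp, 14.1, 12.9 and 12.3 CPM against 21.7, 20.4 and 22.7 CPM (0.72 ± 0.09). Clock genes were lower in 11 and higher in 1 of 18 tested (median -0.40), and with library totals alone 5 were lower and 4 higher. Clock itself was 123, 125 and 122 CPM against 78.4, 75.4 and 75.1 CPM (-0.69 ± 0.07) and Per2 73.9, 69.4 and 77.4 CPM against 37.2, 39.6 and 45.2 CPM (-0.86 ± 0.08). All mice were sampled at one time of day, so a shift in phase and a change in level cannot be told apart.

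Among the subunits of TFIIH and the CDK-activating kinase other than Cdk7, Gtf2h4 was 8.66, 8.87 and 8.72 CPM against 4.98, 4.52 and 4.69 CPM (-0.89 ± 0.12, adjusted p = 1.8e-05) and Ccnh, the cyclin that binds CDK7, 18.4, 17.7 and 18.9 CPM against 13.5, 13.9 and 11.9 CPM (-0.49 ± 0.10, lost with library totals alone). Over all 10 genes, Cdk7 included, 1 was higher and 4 lower (median -0.10, turning to 0.30 with library totals alone). Of 19 other transcriptional kinases, cyclins and elongation factors 1 was higher and 8 lower (median -0.06, turning to 0.34). The one that rose was Cdk19, a kinase of the Mediator complex, at 7.51, 7.31 and 7.28 CPM in the WT pools and 18.4, 16.0 and 16.0 CPM in the KO pools (1.19 ± 0.11, adjusted p = 3.3e-07), with groups far apart and a room temperature effect of 0.09 (difference 1.06, adjusted p = 0.00012). Larp7, which holds the inhibitory 7SK particle together, was lower (-0.71 ± 0.11).

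Interferon-stimulated genes were higher almost throughout the list, 27 of 31 with 1 lower (median 0.89), against 7 higher and 4 lower at room temperature (median 0.24). The effect was more positive in the cold for 7 of 31, beside 10.6% of all genes, and more negative for none. Ifit2 was 3.59, 3.59 and 4.25 CPM against 8.62, 9.20 and 7.79 CPM (1.16 ± 0.14; difference 1.09, adjusted p = 0.0024), and Gbp2 (1.14 ± 0.12; difference 1.11) and Ifi35 (1.12 ± 0.14; difference 1.11) had like values. Irf7, the regulator of the response, was 3.27, 3.07 and 2.95 CPM against 7.01, 7.11 and 7.95 CPM (1.24 ± 0.14). Ifi27 was the gene that fell, at 645, 620.4 and 539 CPM against 368, 335 and 347 CPM (-0.78 ± 0.09).

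Markers of immune cells were higher in KO. Summed over 14 macrophage genes the level was 117 to 131 CPM in the WT pools and 311 to 412 CPM in the KO pools, without overlap, and 11 of 13 tested were higher and none lower (median 1.31). The complement genes C1qa (1.21 ± 0.09), C1qb (1.31 ± 0.10) and C1qc (1.49 ± 0.11), made by resident macrophages, were each raised, with C1qb at 14.2, 15.3 and 15.02 CPM in the WT pools and 39.9, 32.2 and 38.1 CPM in the KO pools. Itgam was listed at 0 in all 6 libraries. Genes of lipid-associated macrophages were higher in 9 and lower in 1 of 10 tested of 11 (median 2.76). With single libraries left out, 7 to 9 were higher and 0 to 1 lower. The sum over these genes was 197 to 223 CPM in the WT pools and 356 to 397 CPM in the KO pools. Lgals3 was 6.90, 7.40 and 5.73 CPM against 41.4, 30.7 and 45.1 CPM (2.55 ± 0.15) and Trem2, their defining receptor, rose (3.70 ± 0.57). Antigen presentation by MHC class II was higher in 7 of 9 tested (median 0.93), with Cd74 at 58.3, 54.7 and 59.2 CPM against 106, 103 and 96.9 CPM (0.83 ± 0.07) and the cathepsin Ctss at 7.79, 5.19 and 6.85 CPM against 34.8, 26.5 and 39.6 CPM (2.34 ± 0.18). Of 21 chemokines 15 were tested, 8 higher and 1 lower, with Ccl6 at 8.91, 7.92 and 9.19 CPM against 37.8, 31.9 and 27.9 CPM (1.90 ± 0.12) and Cxcl14, which fat cells and fibroblasts secrete, at 401, 644 and 574 CPM against 94.5, 182 and 132 CPM (-1.99 ± 0.33). Lymphocyte markers were scarce: 7 of 13 passed the filter, which a gene detected in KO alone can do, and their sum over all 13 was 2.51 to 3.57 CPM in the WT pools and 6.06 to 8.02 CPM in the KO pools. Cd3e of T cells was 0.144, 0.130 and 0.180 CPM against 0.693, 0.802 and 0.731 CPM (2.25 ± 0.37). Neutrophil and mast cell markers summed to 2.69 to 4.29 CPM in the WT pools and 8.40 to 10.2 CPM in the KO pools, with Ly6g at 0 throughout and Kit at 1.08, 1.47 and 1.12 CPM against 4.01, 6.61 and 7.003 CPM (2.27 ± 0.23). Of these 10 markers 5 were tested and 4 were higher, but only 1 without WT pool 1 or without KO pool 2. Cxcr2, Ly6g, Mpo, S100a8 and S100a9 did not pass the filter, so a change in neutrophils cannot be read from the sum. Whether the interferon, MHC or cell cycle genes came from these cells was not tested.

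Stromal and vascular genes were higher by less. All 12 fibroblast and preadipocyte genes were called higher (median 0.72), and 8 to 12 of them with single libraries left out. The genes summed to 616 to 659 CPM in the WT pools and 894 to 1059.6 CPM in the KO pools. Dpt was 18.2, 18.3 and 21.3 CPM against 36.6, 32.5 and 34.2 CPM (0.84 ± 0.09). Extracellular matrix genes were higher in 14 and lower in 1 of 29 (median 0.32), among them Postn at 149, 137 and 145 CPM against 258, 261 and 262 CPM (0.86 ± 0.07), the protease Mmp14 (1.12 ± 0.10) and, as the fall, the crosslinking enzyme Loxl1 (-0.76 ± 0.09). Endothelial genes were higher in 9 and lower in 1 of 12 (median 0.37), and summed to 924 to 967 CPM in the WT pools and 1069 to 1254 CPM in the KO pools, with Tie1 (0.83 ± 0.08) and Tek (0.76 ± 0.09), the angiopoietin receptor, among them, while Vegfa, which adipocytes release to keep vessels, was 560.1, 723 and 638 CPM against 329.9, 313 and 394 CPM (-0.89 ± 0.11). In smooth muscle and pericytes 7 were higher and 1 lower of 10 (median 0.71), summing to 547 to 556 CPM in the WT pools and 678 to 794 CPM in the KO pools: Pdgfrb rose (0.78 ± 0.07) and Des, the intermediate filament desmin, was 68.5, 77.2 and 63.8 CPM against 12.1, 12.2 and 17.6 CPM (-2.33 ± 0.14). Schwann cell genes had 3 higher and 2 lower of 7 tested (median 0.68, 5 higher and 1 lower with library totals alone). Their sum was 87.4 to 101 CPM in the WT pools and 67.7 to 70.1 CPM in the KO pools, of which S100b, one of those that fell, took 40.9, 45.5 and 37.8 CPM against 15.1, 15.1 and 15.6 CPM (-1.44 ± 0.09); the nerve gene Th was at 0 in all 6 libraries. Skeletal muscle genes, a sign of neighbouring muscle in the dissection, summed to 65.3 to 161 CPM in the WT pools and 42.4 to 303 CPM in the KO pools, which overlapped, and of 15 only Myl1 passed the test (-1.20 ± 0.12). Red blood cell genes summed to 245 to 348 CPM in the WT pools and 301 to 356 CPM in the KO pools, also overlapping. The part that such differences in cell content had in the falls of adipocyte genes was not tested.

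General adipocyte genes had 3 higher and 7 lower of 18 (median -0.04, turning to 0.36 with library totals alone). Retn, which encodes resistin, was 18.9, 18.0 and 16.2 CPM against 55.7, 36.8 and 44.1 CPM (1.36 ± 0.14) and the carbonic anhydrase Car4 was higher (1.14 ± 0.11). Of 20 secreted factors 19 were tested, 5 higher and 9 lower (median -0.20, turning to 0.20). Nrg4, a ligand that brown fat sends to other tissues, was 366, 371 and 354 CPM against 134, 170.2 and 154 CPM (-1.25 ± 0.09, adjusted p = 3.8e-08), and Igf1 (0.75 ± 0.10) and Fstl1 (0.73 ± 0.08) were higher. H2-Q10, a class I histocompatibility gene, was 118, 95.7 and 86.3 CPM against 394, 345 and 356 CPM (1.86 ± 0.11). Gm26917, annotated as a long intergenic non-coding RNA, was 28.4, 23.5 and 17.6 CPM against 351, 294 and 294 CPM (3.75 ± 0.17), the only non-coding gene among the 10 largest gains in CPM.

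**Figure D5:**
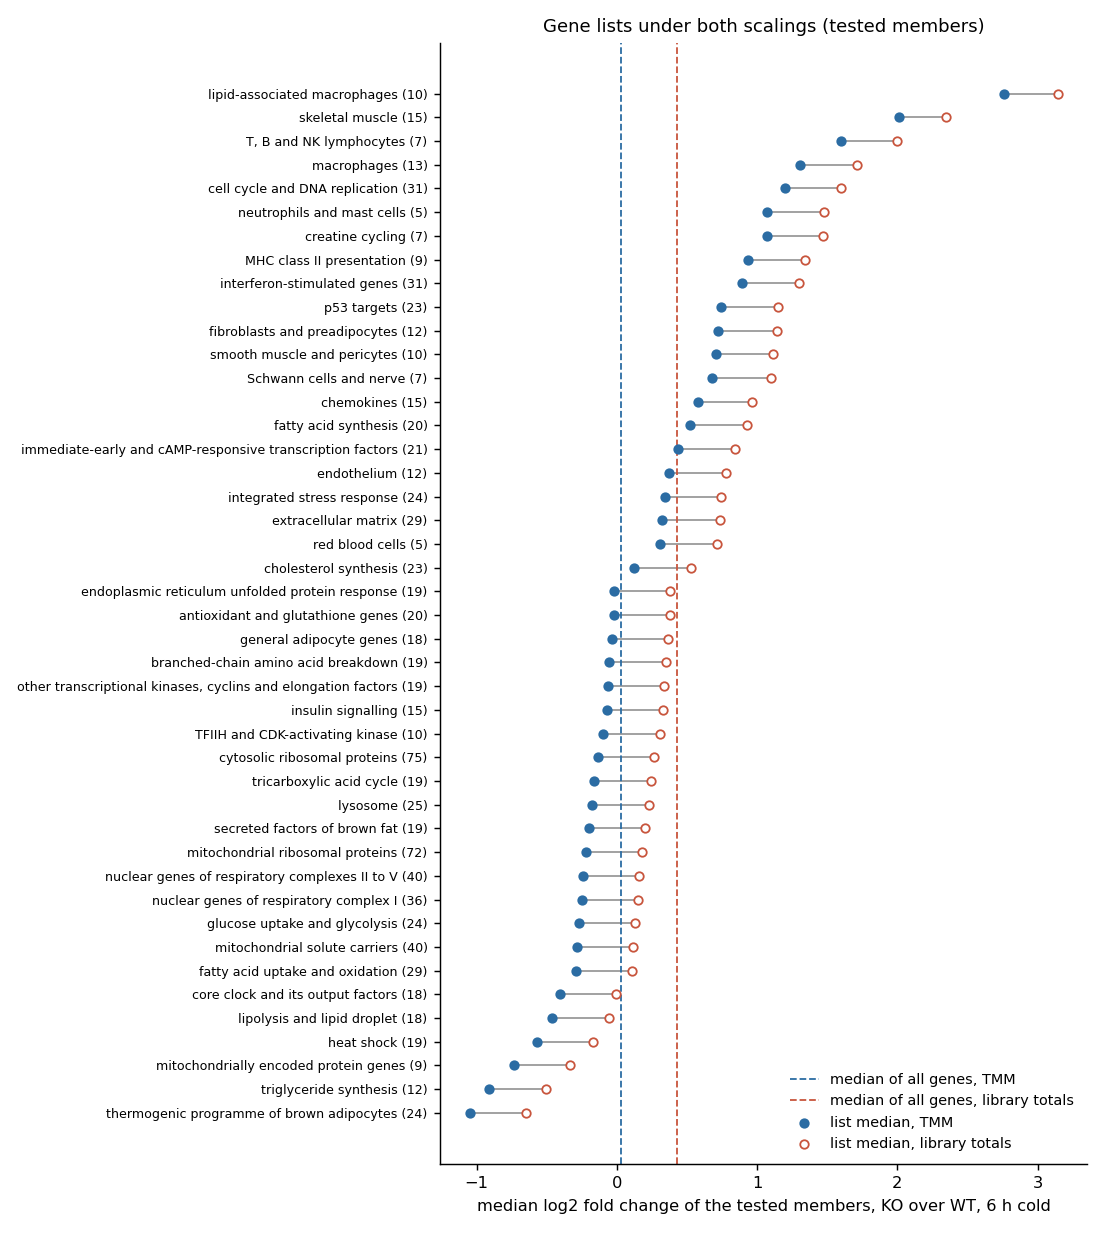
Median log2 fold change (KO over WT after 6 h cold) of the tested members of each gene list with at least 5 of them (number in brackets), with TMM factors (filled) and library totals alone (open), beside the medians of all genes (dashed). The thermogenic list is lowest at -1.05 and -0.65, and the respiratory, ribosomal and glycolytic lists cross 0 between the 2 scalings. The skeletal muscle median of 2.01 comes from genes of which none was called higher.

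The effect of deletion in the cold was set beside that at room temperature in a fit to all 12 libraries, in which the 2 comparisons share no library. Log2 fold changes correlated at r = 0.607 across 15208 genes, which are not independent replicates. Of 3939 genes higher in the cold 1795 were higher at room temperature too (45.6% of the cold calls and 61.1% of the room temperature calls), and of 4222 lower in the cold 1837 were lower in both (43.5% and 57.4%). The effect itself differed for 3581 genes (23.5%), with 1614 more positive and 1967 more negative in the cold, and with library totals alone for 2388 and 711. Ucp1 differed by -1.10 ± 0.17 (adjusted p = 0.00037), as it was -0.88 ± 0.12 at room temperature. Ppargc1a went from higher in KO at room temperature (1.48 ± 0.40) to lower in the cold, a difference of -2.64 ± 0.56 (adjusted p = 0.011). Adrb3 (-0.24 at room temperature; difference -2.10) and Lgr6 (-1.65; difference -2.76) had larger falls in the cold (adjusted p = 0.017 and 7.8e-05). Car6 (6.45), Otof (3.68) and Mmd2 (-3.15) had effects at room temperature whose difference from the cold did not pass.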

How the data were processed

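Gene counts of interscapular brown fat RNA were used as the authors deposited them: raw read counts per gene, made with STAR and HTSeq on GRCm38 per the submitters' processing notes, with versions not given in the sources used here. The strand setting is known only from a file name label, so reads of overlapping genes on opposite strands may not be told apart. Rows that name no gene were left out, and names of 53274 of 53379 gene IDs came from the GENCODE annotation of that build. The cold libraries were fitted with edgeR 4.0.16 (R 4.3.3): filterByExpr, TMM, robust quasi-likelihood test and Benjamini-Hochberg adjustment at 0.05. Effects at room temperature and their difference from the cold came from 1 fit to all 12 libraries. Alternatives used DESeq2 1.42.0 and limma 3.58.1 (voom). The edgeR test was also checked on simulated counts in which few genes changed. That check therefore does not bear on the choice of scaling.

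Members and lists were chosen with earlier results of these data known. Genes named are Cdk7, Ucp1, Ppargc1a and Dio2, the 15 largest called rises and falls with mean log2 CPM of at least 1 and pools that do not overlap, the 10 largest gains and losses in CPM, and up to 4 members of each list and direction with the smallest p. Adrb3, Esrrb, Ppara, Fgf21, Kcnk3, Prdm16, Irf4, Elovl3, Cox8b, Fasn, Hsp90aa1, Hspa1b, Hspe1, Hspd1, Dnaja1, Cdkn1a and Trem2 were named after their values were seen, as was the second heat shock core GAANNTTC. Promoters came from RefSeq (GRCm38.p6), and 10632 tested genes matched. Results for some named genes are not reported here.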

Additional observations from a re-analysis of the deposited data

Results flagged for a closer look

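Of the 183 genes named here with a test, 75 differed in the effect of deletion between the cold and room temperature, by the interaction term of the edgeR fit to all 12 libraries (adjusted p up to 0.0458). Of these 75, 50 were more negative and 25 more positive in the cold. These differences are with TMM, and their split by direction turns on the scaling. Over all genes 1967 were more negative and 1614 more positive with TMM, but 711 and 2388 with library totals alone. Most were named for their size or p-value in the cold libraries, which the interaction term uses again. That choice favours a difference, so the share among named genes is no measure of how common differences are. Values in brackets are differences of log2 fold changes, cold minus room temperature. The 10 genes called in both conditions with opposite signs were more negative in the cold for Ppargc1a (-2.64), Hspa8 (-2.20), Hsp90aa1 (-1.59), Stip1 (-1.47), Manf (-1.44), Dnaja1 (-1.15) and Alpl (-1.37) and more positive for Fas (1.51), Slc27a1 (1.09) and Mccc2 (0.81).

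Among receptors and regulators of thermogenesis the difference was negative for Ucp1 (-1.10), Adrb3 (-2.10), Adrb1 (-0.95), Esrrb (-2.33), Esrra (-0.61), Fgf21 (-1.96), Kcnk3 (-1.12), Ckb (-1.86) and Vegfa (-0.59). In lipid handling it was negative for Fabp3 (-2.34), Fabp3-ps1 (-1.91), Plin5 (-0.70), Plin1 (-0.39), Gpam (-1.11), Gk (-0.69), Agpat2 (-0.58), Lpl (-0.71), Slc27a2 (-0.66), Srebf2 (-0.74) and Hsd17b7 (-0.82) and positive for Pnpla3 (1.10), Hilpda (1.08), Mogat1 (0.78), Cpt2 (0.43) and Thrsp (1.69). In glucose use, the mitochondrion and its carriers it was negative for Pfkfb3 (-0.67), Slc2a4 (-0.72), Insr (-0.47), Ogdh (-0.44), Idh3g (-0.47), Ndufb2 (-0.50), Mrps2 (-0.92), Slc25a42 (-0.85) and Slc25a35 (-0.60) and positive for Pdk1 (0.76) and Suclg2 (0.72). Among other chaperone, stress and lysosome genes it was negative for Hsp90ab1 (-1.52), Hspa4l (-1.33), Hspe1 (-0.89), Atf5 (-1.23), Gdf15 (-2.02) and Ctsz (-1.19) and positive for Ddit4 (0.84) and Xbp1 (0.65).

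In transcription, clock and cell cycle genes it was negative for Clock (-0.83), Gtf2h4 (-0.59) and E2f2 (-2.19) and positive for Cdk19 (1.06), Fos (1.59), Btg2 (0.75), Trp53inp1 (1.38), Mki67 (0.88), Top2a (1.74) and Pcna (0.47). Interferon-stimulated genes with a positive difference were Ifit2 (1.09), Gbp2 (1.11) and Ifi35 (1.11), and Tie1 of endothelium had 0.46. Among the largest changes the difference was negative for Lgr6 (-2.76), Gmpr (-2.15), St3gal5 (-1.60), Tectb (-2.24) and Cend1 (-2.22) and positive for Cfap53 (3.20) and Pdxk-ps (2.13). The common biological coefficient of variation was 13.6% over all 12 libraries and 9.81% over the 6 cold ones, and in 15208 tested genes 23.5% had such a difference.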

How the results depend on the processing

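With library totals alone, 8129 genes were higher and 1232 lower in KO, 3262 and 225 by more than 2-fold, and the effect was more negative in the cold for 711 genes, against 4251, 4102, 1607, 569 and 1967. The cause was not tested. Under the other 16 alternatives each of these counts in the cold stayed within 1.5 times its value above, with 3653 higher and 3978 lower in DESeq2, 4541 and 4407 in limma voom, 3703 and 3613 with skeletal muscle genes as a covariate, and 3824 and 3645 with a strict filter. Leaving out each cold library in turn gave 7334 to 8231 calls, 3681 to 4223 higher and 3560 to 4008 lower, with 1542 to 1801 and 552 to 654 by more than 2-fold. An arm of 2 pools then shares its spread with the other arm. Of 45 list medians, 17 changed sign with library totals alone, 7 with upper-quartile factors and 0 with median-ratio factors. Leaving out single libraries, an alternative chosen after seeing the data, turned the medians of the unfolded protein, insulin and general adipocyte lists, which lie near 0. Of 176 named genes that were called, 163 were called under each alternative that gave them a value (16 of 17 for Fgf21, Cd3e, mt-Nd5, mt-Nd2 and mt-Nd4, and 17 for the rest), 6 were lost under 1 and 7 under more, and none changed sign while called. The limits are 3 pools a group, one time of day, and no sources for sex, Cre driver or batch. Counts under about 1 CPM rest on few reads.

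The cold groups share replicate numbers 1 to 3, and the labels do not say whether these pair the pools. Deviations of same-numbered pools from their group means correlated at -0.28, -0.12 and -0.17, which shows no positive pairing. With 3 pools a group, whose deviations sum to 0, these values cannot settle whether pools shared a batch. A fit with the replicate number as a block gave 4073 higher and 3955 lower (8028 in all), against 8353.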

Other observations

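Genes with at least 10 counts numbered 13149 to 13612 in the WT pools and 14624 to 15052 in the KO pools, without overlap, at total counts of 27609717 to 33633044 over both groups. The 10 most abundant genes of each library took 40.2%, 45.0% and 43.8% of its counts in the WT pools and 35.1%, 36.1% and 40.2% in the KO pools, and these ranges met at 40.2%.

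Genes that cells need are listed at or near 0 in these counts: Cox4i1, Ndufa13 and Rpl13 were at 0 in all 6 cold libraries. Their own levels, and those of Itgam, Ly6g, Th and Wt1, cannot be read from these values.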
